A study of Mus musculus with 7 samples.

Results

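Ndn, Snrpn, Snurf and Zrsr1 are imprinted mouse genes that are transcribed from the copy inherited from the father. They were taken by symbol from the authors' deposited table, which compares megakaryocyte progenitors of old and young mice, and they are 4 of its 769 gene models, from 3 loci. They were selected on measured values, the young and old means, their ratio and its error in that table, so these values are given as a description with no test. The cells were sorted from bone marrow as lineage-negative, cKit+, Sca1-, CD150+ and CD41+ cells, the surface phenotype of progenitors committed to megakaryocytes, and their RNA was sequenced in 3 libraries from young and 4 from old mice. Young mice were 3 months old and old mice 18 to 20 months. All mice were offspring of Flt3-Cre and mTmG parents. In mTmG mice a cell turns from Tomato to GFP fluorescence once Cre has acted in it or in an ancestor, and Flt3 is active in multipotent progenitors. The strain is labelled C57BL/6, except for 1 old library labelled C57BL/7. Tomato+ or GFP+ fractions were sorted, and the old titles carry both mkpgo and mkpto where the young titles carry only mkpgy, so a difference between fractions and one of age cannot be told apart if these prefixes mark the fractions. The labels tie no library to a mouse, and the authors' errors and p-values may therefore measure technical spread. The authors' table gives 1 mean of normalized counts per age group and no value for single libraries.

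At an imprinted locus, DNA methylation laid down in one parent's germ line marks that parental copy, and the marked state decides which copy is transcribed in the offspring. Ndn, Snrpn and Snurf lie in the region of mouse chromosome 7 that corresponds to the Prader-Willi syndrome region, where the Snrpn promoter is part of the imprinting centre. Ndn encodes necdin, a protein of the MAGE family that binds p53 and E2F factors, restrains proliferation and is known for keeping haematopoietic stem cells quiescent. Snrpn encodes SmN, a close relative of the core splicing protein SmB, and Snurf is an upstream reading frame on the same transcript. Zrsr1 is a retrotransposed relative of Zrsr2, which recognises 3' splice sites of minor introns, and sits inside Commd1.

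The starts of these genes are shown because the 3 loci were higher together, and because Snrpn and Snurf share theirs. Ndn occupies chromosome 7, 62346569 to 62350262 on the plus strand, as a single exon. Snrpn spans chromosome 7, 59982495 to 60140219 on the minus strand, 2206 kb from Ndn, and Snurf lies inside it at 59995449 to 60005049. Zrsr1 spans chromosome 11, 22972005 to 22976496 on the plus strand (all GENCODE M21, GRCm38). All 4 matched the RefSeq promoter table of GRCm38.p6, in which the start of Snurf is also 1 of the starts of Snrpn. The stretches below are the 250 bases before the shared Snrpn and Snurf start (chr7:60005200-60005449, minus strand), the 250 bases before the Zrsr1 start (chr11:22971755-22972004, plus strand) and 30 bases close to the RefSeq start of Ndn (chr7:62348244-62348273, plus strand), inside the GENCODE exon. Capitals mark CG pairs, the sites of DNA methylation, in the first and second stretch, and the NRF1 core in the Ndn stretch.
Snrpn and Snurf: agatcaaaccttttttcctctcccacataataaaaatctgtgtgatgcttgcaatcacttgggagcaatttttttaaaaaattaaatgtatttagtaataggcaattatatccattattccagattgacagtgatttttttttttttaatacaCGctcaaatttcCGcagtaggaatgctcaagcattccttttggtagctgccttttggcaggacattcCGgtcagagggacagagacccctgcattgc
Zrsr1: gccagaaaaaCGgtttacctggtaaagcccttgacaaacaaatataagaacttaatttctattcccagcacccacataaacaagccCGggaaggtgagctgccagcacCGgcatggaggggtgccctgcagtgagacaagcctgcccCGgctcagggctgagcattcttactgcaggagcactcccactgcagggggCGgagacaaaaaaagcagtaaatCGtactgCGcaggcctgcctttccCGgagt
Ndn: cttcccaacacGCATGCGCaatatcgcatc
The 250 bases held 3 CG pairs before the Snrpn and Snurf start, 5 before the RefSeq Ndn start and 8 before that of Zrsr1. Windows before the other RefSeq starts of Snrpn held 4, 3 and 2. The median over 32817 promoters of the same length was 6. Each window ends at the start, so CG pairs downstream of it were not counted. Several motifs were searched for on both strands. The NRF1 core, GCGCATGC, was found once, on the minus strand in the window before the Ndn start, and 2.25% of all windows hold it. TGCCGC, the hexamer that ZFP57 binds when methylated (8.68% of windows), and GCCATNTT, a YY1 core (3.90% of windows), were in none of the windows of the 3 loci. A match is only a match of letters, and no binding or methylation was measured.

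All 3 loci had higher means in old than in young megakaryocyte progenitors. In normalized counts, the authors' deposited table gives Ndn a mean of 37.2 in young and 420 in old, Zrsr1 5.37 and 35.5, Snrpn 1.19 and 24.4, and Snurf 1.19 and 24.6. In the background, 2.56% of the 11778 gene models in the authors' adjustment were called higher at an adjusted p under 0.05. All 4 gene models are among those calls in the authors' deposited table, with adjusted p between 1.60e-04 and 0.00324, which follows from how they were chosen. In bulk samples, a change in the share of expressing cells and a change in RNA per cell cannot be told apart.

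The young means could be resolved into libraries. A mean of normalized counts over 3 libraries is a sum of whole reads, each weighted by a step that is fixed per library, and the smallest young means in the table show the 3 steps. All 236 gene models with a young mean above 0 and under 50 had exactly 1 whole-number solution within the rounding of the deposited values and of the steps. One read was worth 1.09, 1.40 and 1.54 normalized counts in the 3 young libraries, here called a, b and c because the steps do not show which replicate each is. The old means were not resolved into libraries. The spread between old libraries therefore enters only through the authors' standard errors (SE), which may also rest on samples outside the series.

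Ndn was the most abundantly counted of the 4 gene models in both groups. The young libraries held 31, 26 and 27 Ndn reads in a, b and c, or 33.7, 36.4 and 41.4 normalized counts (37.2 ± 3.94, SD, n = 3). The 3 young libraries lay close together, and the old mean was 382.7 normalized counts above their mean. The log2 fold change was 3.50 (SE 0.737) in the authors' deposited table, an 11.3-fold ratio of the group means. It ranks 85th by fold change among the 302 higher calls in the authors' deposited table, and 64 other higher calls with a young mean within 2-fold of its own had a median of 2.42. No run of 50 bases of the Ndn transcript occurs in a transcript of any other annotated gene, and no exon of another gene overlaps it. Magel2, the next protein-coding gene 27 kb away and also paternally expressed, is not listed in the deposited table.

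Snrpn and Snurf were at the level of single reads in young cells. Each was counted with 2 reads in library a, 1 in b and 0 in c, that is 2.17, 1.40 and 0 normalized counts, so 1 of the 3 young libraries had no read. The 3 reads carry a 95% exact Poisson interval from 0.619 to 8.77 reads, which puts the ratio of old to young means for Snrpn between 7.01 and 99.3 around 20.5 (counting error of the young reads only). The log2 fold changes were 4.29 (SE 1.03) for Snrpn and 4.30 (SE 1.03) for Snurf in the authors' deposited table. These are the widest errors of the 4 gene models, and 21 other higher calls with a young mean within 2-fold had a median log2 fold change of 4.65 and a median SE of 1.08. Both fold changes lay below that median.

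The values of Snrpn and Snurf are treated as 1 measurement and not 2. All 216 exon bases of the Snurf model in GENCODE M21 lie within Snrpn exons on the same strand. All 167 runs of 50 bases of that model occur in Snrpn transcripts. In RefSeq, Snurf is longer, from 59982495 to 60005199, and reaches the same end as Snrpn. Which extent the authors counted is unknown here. The young means are identical, at 1.19, and the old means are 24.4 and 24.6 in the authors' deposited table. At 3 reads the identical young mean says little by itself, since Gp49a, an unrelated gene model, has the same one in the authors' deposited table. The annotated gene Gm38393 also contains all exon bases of the GENCODE Snurf model and is not listed in the deposited table. Of the runs of 50 bases in Snrpn transcripts, 26.5% occur in another annotated gene, mostly in the overlapping Gm38393 (21.2%), with 7.93% in Snurf. The processed pseudogene Gm18908 holds 4.84%. It lies within the Snrpn span on the opposite strand and shares 148 exon bases with it.

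**Figure D1:**
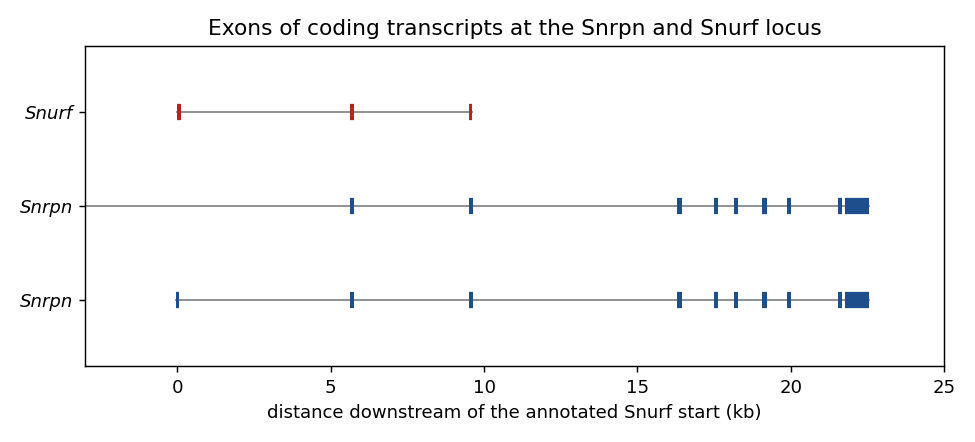
Exons (boxes) of the protein-coding GENCODE transcripts of Snurf and Snrpn, by distance downstream of the annotated Snurf start in kb, with 1 line per transcript. The 3 Snurf exons fall on Snrpn exons, and 1 of the 2 Snrpn transcripts begins upstream, outside the plotted range.

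Zrsr1 had the smallest fold change and the smallest SE of the 4 gene models. The young libraries held 3, 7 and 2 Zrsr1 reads in a, b and c, or 3.26, 9.79 and 3.07 normalized counts (5.37 ± 3.83, SD, n = 3). Library b stood above a and c, and the old mean of 35.5 lay above all 3 young values. The 12 young reads carry a 95% exact Poisson interval from 6.20 to 21.0 reads, and the ratio of the means, 6.60, then lies between 3.78 and 12.8 (counting error of the young reads only). The log2 fold change was 2.75 (SE 0.551) in the authors' deposited table, and 55 other higher calls with a young mean within 2-fold had a median of 2.99 and a median SE of 0.768. Commd1, the host gene on the opposite strand, shares 412 exon bases with Zrsr1 (9.17% of its exon bases) and is not listed in the deposited table. How the counting treated strand is unknown here, so reads from those bases cannot be assigned to one gene. No run of 50 bases of Zrsr1 occurs in Zrsr2.

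**Figure D2:**
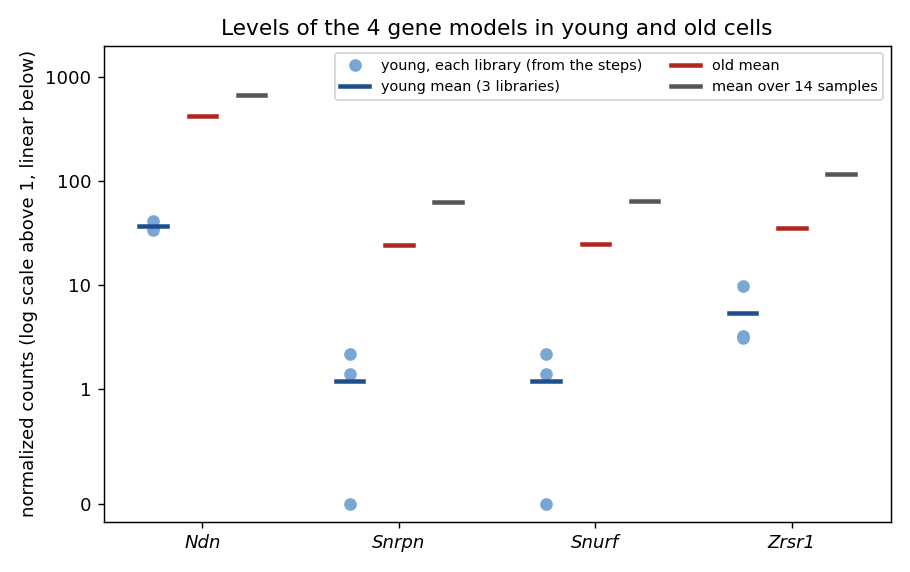
Normalized counts of the 4 gene models on an axis that is logarithmic above 1 and linear below. Points are the 3 young libraries, and bars are the young mean, the old mean and the authors' mean over 14 samples. The old mean lies above every young library for all 4 gene models, and the 14-sample mean lies above the old mean.

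**Figure D3:**
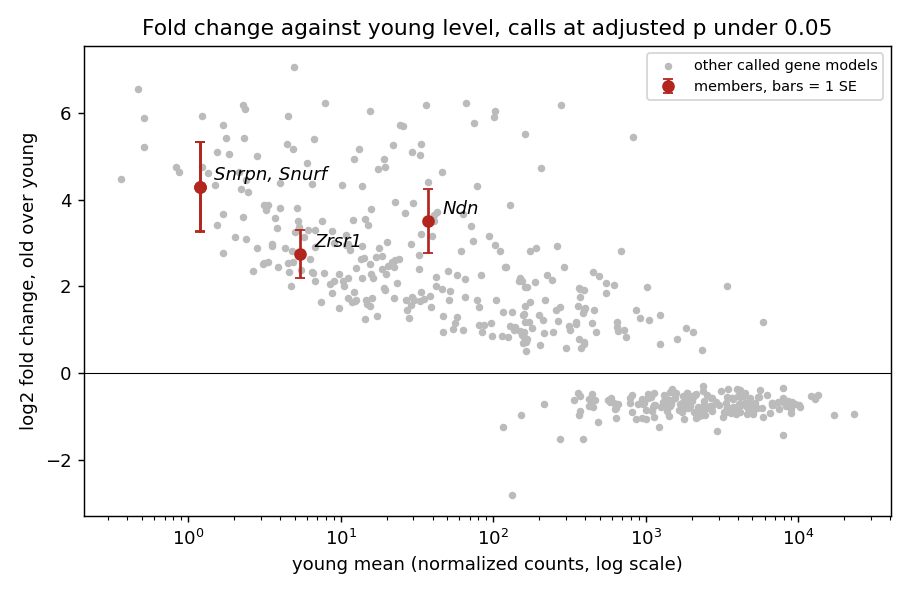
Authors' log2 fold change (old over young) against the young mean in normalized counts (log axis) for 482 of the 487 called gene models. The other 5 have a young mean of 0 and are left out. The 4 members are marked with 1 SE and lie within the spread of other calls at their level.

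The other imprinted genes give almost no values. Lists of 31 paternally and 35 maternally expressed imprinted genes hold 62 genes beside these 4, and none of the 62 is listed in the deposited table. Such a gene had an adjusted p of 0.1 or more or was not in the authors' adjustment, so its level and direction are unknown here. Of the 19 genes listed for the chromosome 7 region, only Ndn, Snrpn and Snurf are listed. Ube3a, on the far side of Snrpn and in the maternally expressed list, is not, and its allelic expression in these cells was not measured. Among 25 genes that maintain imprints or methylate DNA only Trim28, the corepressor recruited by ZFP57, is listed. The authors' deposited table gives it means of 1037 (young) and 693 (old) and a log2 fold change of -0.58 (SE 0.197), which did not pass (adjusted p = 0.0628).

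Among splicing relatives and partners of Snrpn and Zrsr1, the called genes were lower in old. Of 27 genes for Sm and LSm proteins and their assembly, 2 fell and none was called higher, where 1.57% of all gene models were called lower. The assembly methyltransferase Prmt5 fell by 0.53 (SE 0.147, means 4391 and 3039) and its partner Wdr77 fell by 0.55 (SE 0.178) on the log2 scale in the authors' deposited table. Lsm6, a core component of RNA decay and U6 complexes, had -0.67 (SE 0.245) without passing in the authors' deposited table. Snrpb, which encodes SmB, is not listed.

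Of 20 genes in a list for 3' splice site recognition, 3 fell and none was called higher, where 1.57% of all gene models were called lower. The list also holds other splicing factors, Srsf1 among them. In the authors' deposited table Phf5a, a subunit of the SF3b complex, fell by 0.90 (SE 0.286), U2af2, the large U2 auxiliary factor subunit, fell by 0.63 (SE 0.187) and the splicing activator Srsf1 fell by 0.58 (SE 0.177). The median log2 fold change of these 3 calls was -0.63, beside -0.72 over all 185 lower calls. No gene of an 11-gene minor spliceosome list, which includes Zrsr2, is listed. Of the 9 genes in the MAGE list, only Maged1 is listed. The authors' deposited table gives it means of 76.2 (young) and 225 (old) and a log2 fold change of 1.56 (SE 0.526), which did not pass (adjusted p = 0.0623). None of the 24 genes in a list of necdin partners and growth arrest, Trp53 and Cdkn1c among them, is listed. That list also holds D cyclins, their kinases and the proliferation marker Mki67.

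Markers of other cells also had higher old means. For the counts that follow, the share of all gene models called higher is 2.56%. Of 25 granulocyte and monocyte markers 17 rose and another 2 are listed as higher without passing. The summed mean of these 19 listed genes went from 5683 to 106051 normalized counts, a sum weighted towards the most abundant of them. The median log2 fold change of the 17 calls was 5.77. Cd68, a macrophage glycoprotein, had a log2 fold change of 3.64 (SE 0.615), Csf3r, the G-CSF receptor, 3.28 (SE 0.581) and Csf1r, the M-CSF receptor, 3.37 (SE 0.710) in the authors' deposited table. Of 25 stem cell genes 5 rose, with Hoxb5 at 4.38 (SE 0.949), the ETS factor Erg at 1.76 (SE 0.414) and Pdzk1ip1 at 1.34 (SE 0.374) in the authors' deposited table, and 2 more are listed as higher. Of 17 stroma and endothelium markers 2 rose, Bgn (2.93, SE 0.845) and Lpl (3.96, SE 0.785) in the authors' deposited table. None of 12 neuron markers is listed. Of 21 megakaryocyte markers only Selp, P-selectin, is listed, at 496 in young and 2358 in old (2.25, SE 0.677) in the authors' deposited table, so the label of the cells could not be checked against the levels of their markers. The part of these markers and of their cell types in the values of the imprinted genes was not tested.

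**Figure D4:**
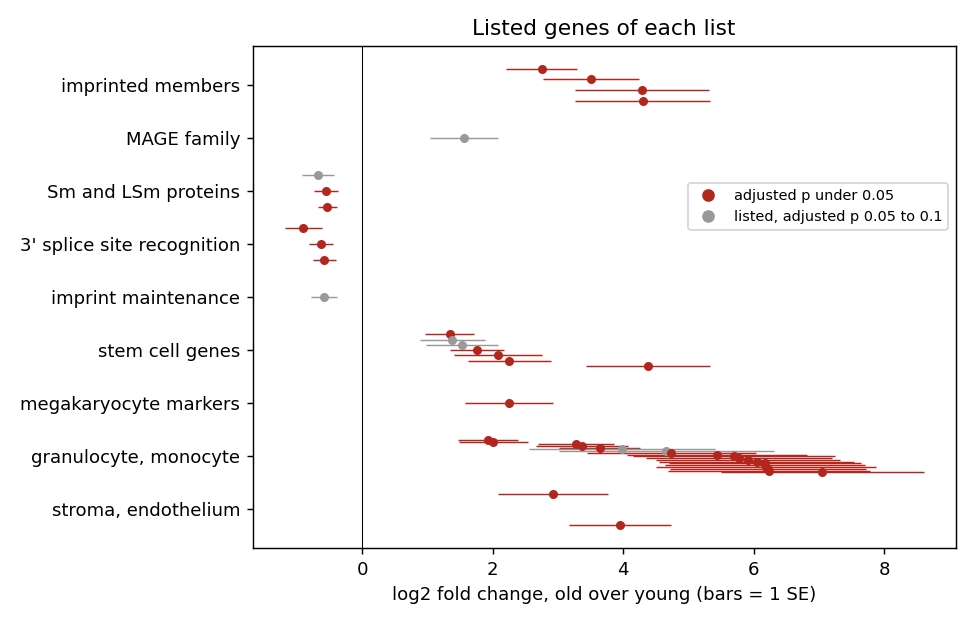
Authors' log2 fold change (old over young, bars 1 SE) of each gene that the deposited table lists, by gene list. Listed splicing genes lie below 0, and the 4 imprinted gene models lie above 0 with listed stem cell, granulocyte and stroma genes.

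The gene models most like each locus were taken over the 2 group means (distance between log2 values of mean + 1), which is a likeness of 2 numbers only. In the authors' deposited table Lgals3 (40.6 and 459) and Lsp1 (39.6 and 355) lay nearest to Ndn in young and old means, Gp49a (1.19 and 21.4) and Mab21l2 (1.49 and 27.5) nearest to Snrpn, and Phf11d (5.53 and 36.3) and Sdc3 (5.05 and 35.2) nearest to Zrsr1. The SE of Zrsr1, 0.551, was below those of Phf11d (0.897) and Sdc3 (0.996) in the authors' deposited table, and that of Ndn, 0.737, was below that of Lgals3 (1.12) and above that of Lsp1 (0.678). Snrpn had an SE of 1.03 against 1.46 for Gp49a and 1.15 for Mab21l2 in the authors' deposited table.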

How the data were processed

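RNA of sorted cells was sequenced in 7 libraries (3 young, 4 old), grouped by the age in their titles. The submitters' processing notes name Bowtie2, STAR, DESeq and mm10, without versions or roles. How reads were counted, with which strand setting and annotation, is unknown here. The authors deposited 1 table of their comparison. Its group means are a signal in normalized counts, per the file headers, and its log2 fold changes are old over young with their SE. The Wald score, the p-values and the adjusted p-values are also the authors', per the file headers. The largest adjusted p in the table is 0.0993, and 11778 gene models were covered by the adjustment, as recovered from the deposited p-values.

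The old column is named mkpxo, which matches no single title, and was read as the old group. The library totals are not given, so depth is known only through the young steps, which correspond to size factors of 0.920, 0.715 and 0.651. No model was fitted. Called means the authors' adjusted p under 0.05. Read recovery was tested on simulated data. Promoters came from RefSeq GRCm38.p6 and exons from GENCODE M21. Intervals cover counting error only and treat reads as independent, so they are too narrow where reads are not independent molecules. Genes named are the members, the listed genes of each list (the 3 with the smallest adjusted p where more than 5 are listed), overlapping and neighbouring genes, and the 2 nearest gene models per locus. The listed genes of the sort markers are named as well. The members and lists were chosen with earlier results of these data known. Python 3.11.15, numpy 2.4.6 and scipy 1.17.1 were used.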

Additional observations from a re-analysis of the deposited data

Results flagged for a closer look

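The mean over 14 samples, which takes in samples beyond the 7 libraries of this series, exceeded both group means for all 4 gene models. In the authors' deposited table it was 677 normalized counts for Ndn, 62.3 for Snrpn, 64.2 for Snurf and 116 for Zrsr1, which is 1.61, 2.55, 2.61 and 3.27 times the old mean. Of the 302 higher calls, 211 (69.9%) have such a 14-sample mean, so it is common among them.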

How the results depend on the processing

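The settings tried could not turn the direction of a gene model chosen for its higher old mean: the log2 ratio of the group means, a pseudocount of 1 or 10 added to each mean, and fold changes recentred by the median of the lower calls (-0.72). A pseudocount of 10 lowered the log2 fold change to 1.62 for Snrpn, 1.63 for Snurf and 1.56 for Zrsr1, by its construction, since their young means are under 10. Recentring raised all 4, Snrpn included, by the same amount, with Ndn at 4.22, Snurf at 5.01 and Zrsr1 at 3.47, and only for Zrsr1 is the shift larger than the SE. The count of called loci was 3 at adjusted p limits of 0.01, 0.05 and 0.1, and 4 with Snrpn and Snurf counted apart. It was also 3 with a 14-sample mean of at least 50, but Snrpn, Snurf and Zrsr1 have young and old means under 50 and pass that minimum only through samples outside the comparison. No paired analysis was possible because the deposited table holds group means and no value per old library. For the same reason other count models, other normalizations, a low-count filter and leaving out single libraries were not run. Depth limits Snrpn and Snurf most, with 3 young reads each.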

Other observations

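The 14-sample mean leaves a level for the samples outside both groups, whose kind is unknown here. If 4 libraries stand behind the old mean, the other 7 samples had a mean of 1098 normalized counts for Ndn, 110.1 for Snrpn, 113.8 for Snurf and 209 for Zrsr1. The number of libraries behind the old mean is not stated, and these values rest on that reading.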
